A study of Saccharomyces cerevisiae with 10 samples.

Results

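XUTs are long noncoding RNAs of budding yeast, named for their accumulation when the ribonuclease Xrn1 is missing. Of 1664 XUTs in the table, 709 rose by similar amounts without Xrn1 and without the RNA helicase Mtr4, and these are called balanced XUTs here. They were chosen by measured density in these libraries, among the 1457 XUTs whose mean normalized density over the 10 libraries was at least 0.034. For each, the xrn1 rise was the log2 ratio of xrn1 over WT, the Mtr4 rise was the log2 ratio of tet-MTR4-Dox over WT-Dox, each from the authors' mean columns with 0.006 added, and a balanced XUT had a Mtr4 rise minus xrn1 rise from -1 to 1. Another 471 XUTs rose more without Mtr4, 277 rose more without Xrn1, and 207 lay under the density limit. The whole table holds 10799 yeast features. Both rises were used to choose the 709, so they are described below with no test; the dbp2 libraries entered the choice only through the mean density, and dbp2 against WT is the comparison tested, although its WT libraries also entered the xrn1 rise.

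The study compared strand-specific RNA-seq of total, rRNA-depleted RNA from 5 groups of cells with 2 biological replicates each, all grown to mid-log phase in YPD medium. The xrn1 group carried an xrn1Δ::kanMX4 deletion in strain BY4741, of mating type MATa with his3Δ1, leu2Δ0, met15Δ0 and also ura3Δ0. The dbp2 group carried dbp2Δ::KanMX6 in a strain labelled BY4741, MATa, but with the alleles his3Δ0, leu2Δ0 and ura3Δ0 and with its methionine and lysine markers written as met- and lys?. In the tet-MTR4-Dox group, of strain BMA64-1A, MTR4 was under a tetOFF promoter that doxycycline represses, marked by kanMX6, and the cells received doxycycline at 10 μg/mL for 6 h. The WT-Dox group was BMA64-1A without that promoter and with the same drug. BMA64-1A is MATa and carries the trp1Δ2 allele together with a leu2 allele that carries the mutations 3 and 112, his3-11,15, can1-100, ura3-1 and ade2-1. The WT group was BY4741 with the same markers as the xrn1 group and no drug. The xrn1 and dbp2 groups are deletions present throughout growth, while Mtr4 was depleted over hours, and the labels do not say whether a replicate was a separate clone.

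Xrn1 is the main cytoplasmic exoribonuclease that digests RNA from its 5′ end once the cap has been removed. Mtr4, an RNA helicase found in the TRAMP complex, unwinds RNA and passes it on to the exosome of the nucleus, and its loss is known to stabilise cryptic unstable transcripts (CUTs). Dbp2 is a DEAD-box RNA helicase that acts on RNA in the nucleus. XUTs are made by RNA polymerase II, are capped and polyadenylated, and often lie antisense to a gene.

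A density is a number of reads divided by the length of the feature and by a factor per library that, inferred from the values, follows the ERCC spike-in RNAs, so a level below is per length and per spike-in RNA; it is not known to be a level per cell. In these bulk cultures a change in all cells and a change in some of them cannot be told apart. Recovered libraries held between 15.5 M and 33.1 M reads on yeast features, of which 0.0469 M to 0.369 M lay on XUTs. XRN1 RNA had densities of 0.102 and 0.106 in xrn1 libraries, against 2.49 and 2.28 in WT. DBP2 RNA had densities of 0.00313 and 0.00326 in dbp2 libraries, against 3.49 and 3.41 in WT, and MTR4 RNA had densities of 0.429 and 0.469 in tet-MTR4-Dox, against 1.49 and 1.3 in WT-Dox. A pair of strain markers moved with dbp2: LYS2 had densities of 0.000502 and 0.000349 in dbp2 and 1.1 and 0.999 in WT, and MET17 (the MET15 gene) had densities of 1.75 and 1.64 in dbp2 and 0.00125 and 0.000477 in WT. TRP1 differed between the doxycycline groups, with densities of 0.129 and 0.128 in tet-MTR4-Dox and 0 and 0.00069 in WT-Dox. The part of these strain differences in the results was not tested.

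Coordinates of XUTs were not used here, but the rows of the table follow gene starts: 5873 of 5884 neighbouring gene rows on 1 chromosome ascended by their RefSeq start in build R64. The rows on either side of a XUT therefore bound its start, and its length, recovered from the densities, bounds its end. The XUT numbers run through the table in 1 ascending block up to XUT0926 and in another after it, and these blocks were read as the plus and the minus strand because all 31 NUTs that shared near-equal reads with a gene had that gene's strand and all 121 XUTs that shared near-equal reads with a NUT stood in the matching block. NUTs are transcripts that appear when the Nrd1 termination complex is depleted. All positions and strands of XUTs below are inferences from this row order. For 42 of the 709, a particular gene on the opposite strand is overlapped wherever the start lies between those bounds. For 4 of these 42, all described below, the stretch that lies opposite the start of the gene's coding sequence is shown in the XUT's own 5′ to 3′ direction from the RefSeq R64 genome. Capitals mark the complement of the gene's start codon, so each antisense RNA reads into CAT where the gene's own messenger begins with ATG.
XUT1126, opposite GLC3, chrV:133120-133219, minus strand: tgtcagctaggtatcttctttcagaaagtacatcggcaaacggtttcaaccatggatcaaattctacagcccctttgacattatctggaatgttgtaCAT
XUT0683, opposite YML122C, chrXIII:26319-26418, plus strand: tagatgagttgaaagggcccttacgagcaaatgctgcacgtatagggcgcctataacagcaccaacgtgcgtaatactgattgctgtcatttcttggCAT
XUT0057, opposite PHO5, chrII:430852-430951, plus strand: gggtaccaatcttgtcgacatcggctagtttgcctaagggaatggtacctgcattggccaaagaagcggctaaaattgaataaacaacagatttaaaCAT
XUT1365, opposite BCK1, chrX:247255-247292, minus strand: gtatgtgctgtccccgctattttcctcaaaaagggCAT

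The balanced XUTs were scarce in control cells and several-fold more abundant without either decay factor. Their median density was 0.142 and 0.143 in the xrn1 libraries, 0.0586 and 0.0563 in dbp2, 0.152 and 0.145 in tet-MTR4-Dox, 0.0179 and 0.0178 in WT-Dox, and 0.0191 and 0.0188 in WT. The median xrn1 rise was 2.62 on the log2 scale, with the 10th to 90th percentile from 1.78 to 3.41, and the median Mtr4 rise was 2.61, with the same percentiles from 1.69 to 3.48. In 499 of the 709 both rises were at least 2, in 114 both were at least 3, and in 7 both were at least 4. All 709 had both xrn1 libraries above both WT libraries and both tet-MTR4-Dox libraries above both WT-Dox libraries. Over all 9680 features tested the shares were 96.2% and 92.7%. The choice used these libraries and sets no direct minimum on either rise, but its limit on mean density favours XUTs that are high in the mutants. The control medians above lay under that limit of 0.034, and the mutant medians of xrn1 and tet-MTR4-Dox lay over it. That all 709 were higher is therefore no separate result. As a class the balanced XUTs were at about the same level in either mutant, which follows largely from the choice, as the controls had similar medians. Of single members, 283 had both tet-MTR4-Dox libraries above both xrn1 libraries (39.9%, background 33%) and 288 had both below (40.6%, background 62.6%). The choice used these libraries, so the gaps to the background are no separate result. The groups are in different strains, so these levels are set side by side only.

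**Figure D1:**
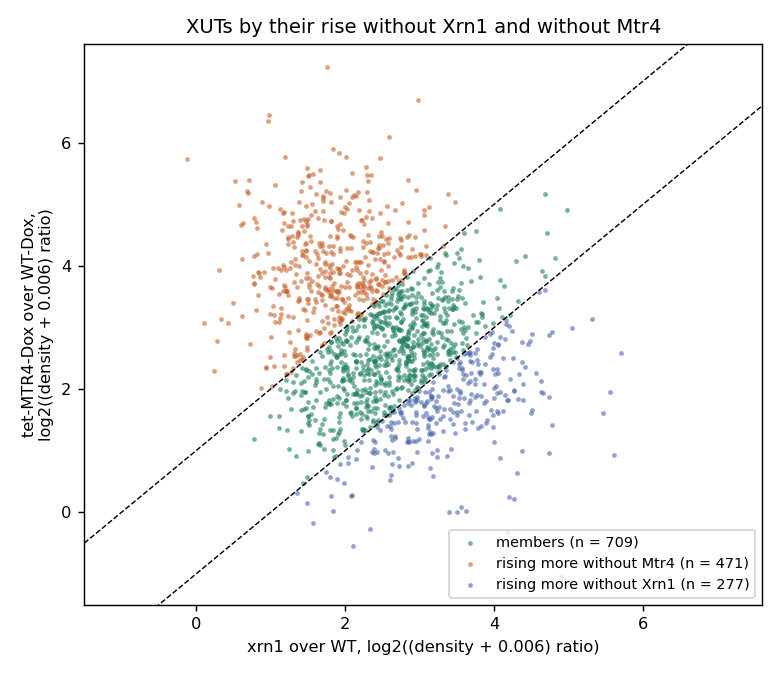
Each point is 1 of the 1457 XUTs at or above the density limit; the horizontal axis is the log2 ratio of xrn1 over WT and the vertical axis that of tet-MTR4-Dox over WT-Dox, both on density plus 0.006. The 709 balanced XUTs (green) fill the band between the dashed lines, where the difference runs from -1 to 1, with 471 XUTs above it and 277 below it.

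The controls held few reads per member, and this sets the precision of every ratio. Balanced XUTs had a median of 14 and 18 reads in the WT libraries, and 35.5% and 26.2% of them had under 10 reads there. A median of 92 and 71 reads lay on them in xrn1 and 71 and 96 in tet-MTR4-Dox. Replicates differed by a median of 0.11 on the log2 scale in xrn1 cells, 0.15 in dbp2, 0.15 in tet-MTR4-Dox, 0.22 in WT-Dox and 0.19 in WT. When the choice was made on the replicate 1 libraries alone, 683 XUTs qualified, and 562 of them (82.3%) also lay between -1 and 1 in the replicate 2 libraries. Made on replicate 2, 701 qualified and 555 (79.2%) lay there in replicate 1. By the mean columns 709 of the 1457 XUTs at or above the density limit lay in that band, so many would do so without a first choice. These shares describe the spread between replicates only.

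The strongest joint rise was in XUT0911, a 917-base RNA whose row stands between YPR078C and MRL1 on chromosome XVI. It had densities of 0.36 and 0.345 in xrn1 cells, 0.0888 and 0.0742 in dbp2, 0.602 and 0.524 in tet-MTR4-Dox, 0.0111 and 0.015 in WT-Dox, and 0.00606 and 0.00462 in WT. Its xrn1 rise was 4.98 and its Mtr4 rise 4.90 (SE 0.15 each), and every mutant library lay above every control library. The WT values rest on 6 reads in each library.

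XUT0404, 680 bases long with its row between UPA1 and ERV29 on chromosome VII, had the highest level of these leading members in tet-MTR4-Dox. Its densities were 0.446 and 0.481 in xrn1 cells, 0.089 and 0.0843 in dbp2, 1.43 and 1.26 in tet-MTR4-Dox, 0.036 and 0.0273 in WT-Dox, and 0.0123 and 0.0125 in WT. The tet-MTR4-Dox libraries were the highest, dbp2 lay between xrn1 and the controls, and WT-Dox lay above WT. XUT0790, with its row between CSS3 and ENB1, a gene for an iron-siderophore transporter, on chromosome XV, showed the same order. It had densities of 0.394 and 0.344 in xrn1 cells, 0.133 and 0.0998 in dbp2, 0.837 and 0.68 in tet-MTR4-Dox, 0.0356 and 0.0395 in WT-Dox, and 0.00648 and 0.00823 in WT.

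XUT1458 and XUT0974 also rose strongly in either decay mutant. XUT1458 had densities of 0.441 and 0.454 in xrn1 cells, 0.0487 and 0.0389 in dbp2, 0.305 and 0.302 in tet-MTR4-Dox, 0.00627 and 0.00861 in WT-Dox, and 0.011 and 0.0116 in WT; its reads were near-equal to those of NUT1239 in all libraries, so the rows may count the same RNA. XUT0974, whose row stands between YBR071W and HSP26, the gene for a small heat-shock chaperone, had densities of 0.38 and 0.302 in xrn1 cells, 0.0731 and 0.0537 in dbp2, 0.32 and 0.364 in tet-MTR4-Dox, 0.0156 and 0.0113 in WT-Dox, and 0.0107 and 0.00992 in WT. In both XUTs dbp2 lay between the decay mutants and the controls, and no mutant library overlapped a control.

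XUT0683 is a 2567-base RNA whose row stands between PHO84, the high-affinity phosphate transporter gene, and YML122C on chromosome XIII; the row bounds let it overlap PHO84 but do not require it. It had densities of 0.634 and 0.65 in xrn1 cells, 0.337 and 0.352 in dbp2, 0.235 and 0.209 in tet-MTR4-Dox, 0.00794 and 0.00692 in WT-Dox, and 0.0274 and 0.0269 in WT. Here dbp2 stood above tet-MTR4-Dox, and the dbp2 effect was a 10.6-fold rise (log2 3.40 ± 0.10 SE, limma adjusted p = 3.1e-09; 2.68 relative to the median protein-coding gene). PHO84 itself had densities of 24.8 and 24.9 in xrn1 cells, 0.0863 and 0.0839 in dbp2, 5.16 and 6.81 in tet-MTR4-Dox, 18.7 and 18.2 in WT-Dox, and 13 and 12.3 in WT. PHO84 RNA thus fell in dbp2 (log2 -7.12 ± 0.10 SE, limma adjusted p = 2.0e-11) and in tet-MTR4-Dox (-1.64, adjusted p = 5.6e-08), and rose in xrn1 (0.97, adjusted p = 3.7e-06), a rise that turned to -1.10 relative to the median protein-coding gene; XUT0683 was higher in all of these mutants.

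At the other end of the joint rises were XUTs with measurable levels in control cells. XUT1576 had densities of 0.103 and 0.0871 in xrn1 cells, 0.0336 and 0.0401 in dbp2, 0.0506 and 0.0456 in tet-MTR4-Dox, 0.0178 and 0.0176 in WT-Dox, and 0.0567 and 0.0493 in WT. It is 229 bases long and was lower in dbp2 (log2 -0.46 ± 0.15 SE, limma adjusted p = 0.014), a call lost without WT replicate 1 (-0.37) and without dbp2 replicate 1 (-0.35). XUT0176 had densities of 0.106 and 0.113 in xrn1 cells, 0.0381 and 0.0457 in dbp2, 0.0668 and 0.0768 in tet-MTR4-Dox, 0.0363 and 0.0339 in WT-Dox, and 0.0418 and 0.037 in WT; only its dbp2 and WT values overlapped. XUT1111 stood out for its level in the BMA64-1A groups, which differ from the others in strain and in drug. It had densities of 0.127 and 0.139 in xrn1 cells, 0.173 and 0.142 in dbp2, 1.16 and 0.995 in tet-MTR4-Dox, 0.505 and 0.55 in WT-Dox, and 0.0485 and 0.0571 in WT. Its row is next to that of TSA2, a peroxiredoxin gene. XUT0978, with its row beside TPS1, the trehalose-6-phosphate synthase gene, was the least repeatable of these: WT gave 0.117 and 0.0471, against 0.0978 and 0.125 in dbp2, a log2 difference of 0.53 (adjusted p = 0.25) that became 1.13 (adjusted p = 0.031) without WT replicate 1.

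The XUTs with the most nearly equal rises were present at modest levels. XUT1124, whose row stands between YEF1 and UTR2 and whose reads were near-equal to those of NUT0955, had densities of 0.0737 and 0.0791 in xrn1 cells, 0.00706 and 0.00847 in dbp2, 0.0878 and 0.0829 in tet-MTR4-Dox, 0.00594 and 0.00894 in WT-Dox, and 0.00648 and 0.00576 in WT. Both of its rises were 2.76, and it did not pass the test in dbp2 (log2 0.18 ± 0.17 SE, limma adjusted p = 0.32). XUT0572, whose row stands between FAT3 and MTR2, had rises of 2.77 each and did rise in dbp2, with densities of 0.0358 and 0.031 in dbp2, against 0.00832 and 0.00724 in WT (log2 1.51 ± 0.15 SE, adjusted p = 4.2e-06). The values of these XUTs in dbp2 were not alike, and that difference between them was not tested. The other members of this kind, XUT1383 and XUT1696, had rises of 1.99 and 1.84.

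The choice has sharp limits, and XUTs near them differ little. Just inside the limit of -1 were XUT0035 (-0.9992) and XUT1365 (-0.9889), and just outside it XUT0986 (-1.0022) and XUT1084 (-1.0034). Just inside the limit of 1 were XUT0378 (0.9987) and XUT0725 (0.9927), and just outside it XUT0444 (1.0005) and XUT0622 (1.0036). By mean density XUT0106 (0.0341) and XUT0646 (0.0342) were just inside, and XUT0347 (0.0338) and XUT0244 (0.0337) just outside. In 374 of the 709 the difference was within 0.5 of 0.

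The 4 densest balanced XUTs had far higher densities than most; the median of mean densities over all 709 was 0.0804. XUT1813 lies among the rows of the 2-micron plasmid, a multicopy circle of yeast nuclei, and had densities of 14.6 and 14.2 in xrn1 cells, 13.6 and 13.8 in dbp2, 8.91 and 7.84 in tet-MTR4-Dox, 2.92 and 2.77 in WT-Dox, and 3.08 and 2.84 in WT. Plasmid copy number was not measured, and its part in these levels was not tested. XUT0463, near a chromosome end with its row between YHR214W and YHR214C-D, had densities of 3.81 and 4.36 in xrn1 cells, 0.55 and 0.525 in dbp2, 3.74 and 3.58 in tet-MTR4-Dox, 0.552 and 0.477 in WT-Dox, and 0.595 and 0.565 in WT. XUT0466, with its row between IMA3 and CSS1, had densities of 1.2 and 1.24 in xrn1 cells, 0.736 and 0.752 in dbp2, 2.67 and 2.8 in tet-MTR4-Dox, 0.774 and 0.734 in WT-Dox, and 0.513 and 0.514 in WT; both XUT0463 and XUT0466 are in repeated regions where reads may be shared between copies, so their levels are uncertain, as is that of the next. XUT1564, between the rows of ERB1 and FAR3, which flank a Ty1 transposon in the reference strain, had densities of 3.1 and 2.8 in xrn1 cells, 1.08 and 0.917 in dbp2, 2.03 and 1.77 in tet-MTR4-Dox, 0.487 and 0.487 in WT-Dox, and 0.935 and 0.915 in WT. Of these 4, XUT1813 rose most in dbp2 (log2 2.21), XUT0466 had 0.53, and XUT0463 and XUT1564 did not pass the test there (-0.11 and 0.11, adjusted p = 0.24 and 0.28); relative to the median protein-coding gene, XUT0463, XUT1564 and XUT0466 were lower in dbp2 at -0.95, -0.74 and -0.31.

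Most balanced XUTs were also more abundant without Dbp2, as were most RNAs in these cells. Of the 709, 621 were called higher in dbp2 than in WT (87.6%, against a background of 84.8% of all 9680 features), 11 were called lower (1.55%, against 5.31%) and 77 were not called, by limma on log2(density + 0.006) with Benjamini-Hochberg adjustment over all features. The median log2 change was 1.32 for the balanced XUTs, 1.21 for the other XUTs, 0.81 for protein-coding genes and 0.95 for all features. Among the other XUTs it was 1.38 for those that rose more without Xrn1 and 1.15 for those that rose more without Mtr4. Set on each library's median protein-coding gene, 416 were higher (58.7%, background 43.3%), 63 were lower (8.89%, background 28.7%), and the median change was 0.65, against 0.53 for the other XUTs and -0.03 for protein-coding genes. On that scale 61.4% of the XUTs that rose more without Xrn1 were higher, with a median of 0.63. For those that rose more without Mtr4 these values were 46.7% and 0.46. The share called higher per spike-in RNA was near the background, and no test of the difference between the balanced XUTs and other features was made. The 416 were called higher on both scales, and 11 others were called higher per spike-in RNA and lower on the relative scale.

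**Figure D2:**
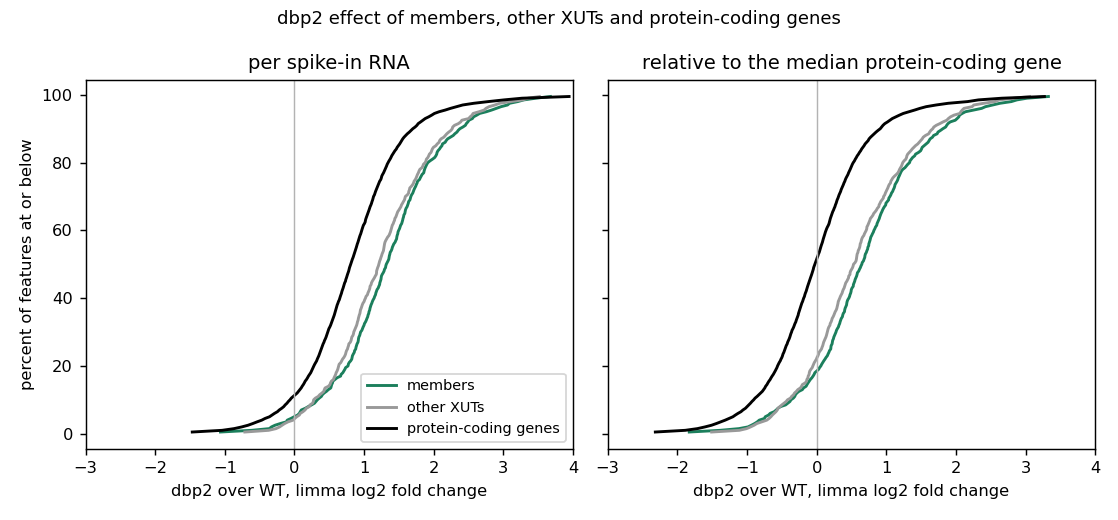
Cumulative share of features (vertical axis, percent) at or below each limma log2 fold change of dbp2 over WT (horizontal axis), per spike-in RNA on the left and relative to the median protein-coding gene on the right. The curve of the 709 balanced XUTs (green) lies to the right of that of protein-coding genes (black), with medians of 1.32 and 0.81 on the left and 0.65 and -0.03 on the right, and close to that of the other XUTs (grey).

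For most members the dbp2 effect was smaller than either rise that chose them. It lay below both in 625, between them in 51 and above both in 33. These comparisons share the WT libraries with the xrn1 rise, and both rises were used in the choice. The order is not particular to the members. Over all features tested the median log2 change was 0.95 in dbp2, 1.90 in xrn1 and 1.36 in tet-MTR4-Dox. The share of all features with a dbp2 effect below both was not counted. In size, 133 had a log2 change of at least 2 in dbp2, 349 from 1 to under 2, 190 from 0 to under 1, and 37 below 0. Both dbp2 libraries lay above both WT libraries in 639 members (90.1%, background 88.2%) and below both in 21 (2.96%, background 6.69%).

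The members with the largest rise in dbp2 came from very low WT levels. XUT0586, a 324-base RNA whose row stands between CWP2 and CWP1, both cell wall mannoprotein genes, had densities of 0.274 and 0.242 in xrn1 cells, 0.211 and 0.231 in dbp2, 0.268 and 0.281 in tet-MTR4-Dox, 0.0157 and 0.0224 in WT-Dox, and 0.0114 and 0.00871 in WT. XUT1395, between the rows of BUD4 and FIP1, had densities of 0.132 and 0.138 in xrn1 cells, 0.137 and 0.126 in dbp2, 0.102 and 0.0774 in tet-MTR4-Dox, 0.0058 and 0.00276 in WT-Dox, and 0.00211 and 0.00563 in WT. Both rose 14.1-fold in dbp2 on the density + 0.006 scale (log2 3.82, SE 0.15 for XUT0586 and 0.22 for XUT1395; limma adjusted p = 1.3e-08 and 8.8e-08), to levels close to those in the decay mutants. XUT0335, between the rows of STR3, a sulfur amino acid gene, and MND1, a meiotic gene, had densities of 0.0804 and 0.0648 in xrn1 cells, 0.107 and 0.107 in dbp2, 0.152 and 0.141 in tet-MTR4-Dox, 0.00382 and 0.00606 in WT-Dox, and 0.00348 and 0.00331 in WT, a rise of 12-fold in dbp2 (log2 3.59 ± 0.16 SE, adjusted p = 2.2e-08). In this XUT dbp2 lay above xrn1. The WT libraries held only 4 and 4 reads on XUT0586, 2 and 7 on XUT1395 and 4 and 5 on XUT0335.

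XUT1214, with its row between USE1 and SRM1, had densities of 0.0703 and 0.0388 in xrn1 cells, 0.112 and 0.0865 in dbp2, 0.0766 and 0.0725 in tet-MTR4-Dox, 0.00186 and 0.00147 in WT-Dox, and 0.00169 and 0.00258 in WT, so its highest levels were in dbp2. Only 3 WT reads stand behind it, and the ratio of densities, dbp2 over WT, was 44.3 with an exact 95% counting interval from 14.8 to 218 that covers counting error only. XUT1025 and XUT1023 both have their rows between RDS1 and AAD3 near the right end of chromosome III. XUT1025 had densities of 0.0963 and 0.0849 in xrn1 cells, 0.113 and 0.106 in dbp2, 0.663 and 0.631 in tet-MTR4-Dox, 0.0434 and 0.0525 in WT-Dox, and 0.00329 and 0.00251 in WT. XUT1023 had densities of 0.0562 and 0.0761 in xrn1 cells, 0.0709 and 0.0693 in dbp2, 0.57 and 0.474 in tet-MTR4-Dox, 0.0219 and 0.0116 in WT-Dox, and 0 in both WT libraries. Its dbp2 level was at least 12-fold higher than the level that 3 reads in each WT library would give. Both were higher in both WT-Dox libraries than in both WT libraries, groups that differ in strain and in drug. The WT values of XUT1025 rest on 3 reads in each library.

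A further 11 balanced XUTs were called lower in dbp2 (1.55%, against 5.31% of all features). Like all 709 they were higher without Xrn1 and without Mtr4, which is no separate result because the choice used those libraries. XUT0614, between the rows of SPA2 and KNS1, had densities of 0.103 and 0.104 in xrn1 cells, 0.00862 and 0.00399 in dbp2, 0.163 and 0.169 in tet-MTR4-Dox, 0.0612 and 0.0611 in WT-Dox, and 0.0315 and 0.0258 in WT; its log2 change in dbp2 was -1.51 ± 0.18 SE (limma adjusted p = 1.7e-05), on 5 dbp2 reads in all. XUT0419, between the rows of AIM17 and OPI1, a repressor of phospholipid genes, had densities of 0.111 and 0.15 in xrn1 cells, 0.0214 and 0.00993 in dbp2, 0.285 and 0.301 in tet-MTR4-Dox, 0.064 and 0.0594 in WT-Dox, and 0.0521 and 0.0535 in WT, a change of -1.49 ± 0.23 SE (adjusted p = 0.00011). In both, the dbp2 libraries were the lowest of all 10.

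XUT1126, shown above opposite GLC3, had densities of 0.0879 and 0.0972 in xrn1 cells, 0.00685 and 0.00654 in dbp2, 0.101 and 0.0972 in tet-MTR4-Dox, 0.0234 and 0.0261 in WT-Dox, and 0.0231 and 0.0236 in WT. It fell by 1.21 on the log2 scale in dbp2 (SE 0.14, limma adjusted p = 1.2e-05), while its rises without Xrn1 and without Mtr4 were 1.75 and 1.77. Its reads were near-equal to those of NUT0961. XUT0395, between the rows of TOS2 and PET54, had densities of 0.222 and 0.185 in xrn1 cells, 0.0153 and 0.016 in dbp2, 0.276 and 0.238 in tet-MTR4-Dox, 0.0514 and 0.0463 in WT-Dox, and 0.0435 and 0.0356 in WT. Its change in dbp2 was -1.07 ± 0.15 SE (adjusted p = 4.7e-05), and its dbp2 libraries too were below every other library.

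XUT0724 and XUT0725 are neighbours, both with rows between PAH1, the phosphatidate phosphatase gene, and MME1 on chromosome XIII, and both were nearly absent from dbp2. XUT0724 had densities of 0.106 and 0.109 in xrn1 cells, 0.00152 and 0.00316 in dbp2, 0.274 and 0.231 in tet-MTR4-Dox, 0.0267 and 0.0272 in WT-Dox, and 0.0108 and 0.0117 in WT (log2 -1.06 ± 0.15 SE in dbp2, limma adjusted p = 8.3e-05). XUT0725 had densities of 0.058 and 0.0498 in xrn1 cells, 0 in both dbp2 libraries, 0.181 and 0.152 in tet-MTR4-Dox, 0.00425 and 0.00672 in WT-Dox, and 0.00386 and 0 in WT. XUT0725 had 1 read over both WT libraries and did not pass the test (log2 -0.36, limma adjusted p = 0.18); without WT replicate 2, which held 0 reads, it passed as lower (-0.72, adjusted p = 0.016), a call that rests on that 1 read in WT. The neighbouring genes were detected in dbp2 at levels near those in WT: PAH1 had densities of 0.296 and 0.304 in dbp2, against 0.225 and 0.21 in WT (log2 0.45, and -0.38 on the relative scale). MME1 had densities of 0.212 and 0.202 in dbp2, against 0.176 and 0.166 in WT (log2 0.27, and -0.56 on the relative scale).

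XUT0138, between the rows of GLT1, the glutamate synthase gene, and UGA3, had densities of 0.138 and 0.165 in xrn1 cells, 0.00884 and 0.0184 in dbp2, 0.157 and 0.18 in tet-MTR4-Dox, 0.0245 and 0.0162 in WT-Dox, and 0.0261 and 0.0425 in WT, and fell by 1.05 on the log2 scale in dbp2 (SE 0.27, limma adjusted p = 0.0041). The remaining called falls, besides XUT1576 above, ran from -0.77 in XUT0783 to -0.31 in XUT0060. The row of XUT0060 stands next to that of LYS2, the marker gene near 0 in dbp2 cells, and the part of that strain difference in this call was not tested. It had densities of 0.247 and 0.254 in xrn1 cells, 0.0226 and 0.0201 in dbp2, 0.211 and 0.23 in tet-MTR4-Dox, 0.0276 and 0.0222 in WT-Dox, and 0.0275 and 0.0284 in WT; it was named after its values were seen.

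**Figure D3:**
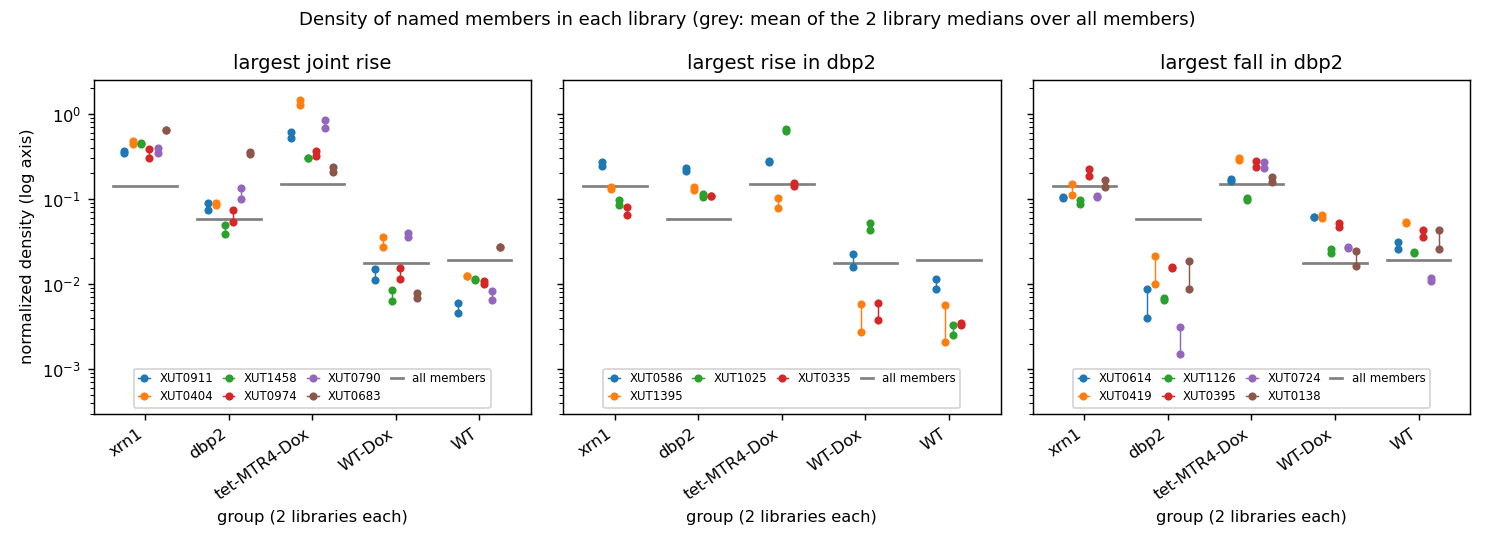
Normalized density (vertical log axis) of named balanced XUTs in each of the 2 libraries of the 5 groups (horizontal axis), joined by a line, for those with the largest joint rise, the largest rise in dbp2 and the largest fall in dbp2; XUT1214 and XUT1023, which had 3 or fewer reads in WT, are left out. The WT points of the other XUTs with the largest rise in dbp2 also rest on few reads. Grey bars give the mean of the 2 library medians over all 709. The XUTs on the right lie at or below 0.0214 in dbp2 while reaching 0.0879 or more in xrn1 and tet-MTR4-Dox.

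The choice did not use length, and lengths are given as a description with no test. Balanced XUTs had a median length of 648 bases, ranging from 102 to 4560, against 450 for XUTs that rose more without Mtr4 and 958 for those that rose more without Xrn1. Within the balanced XUTs the shortest, at up to 443 bases, had a median xrn1 rise of 2.38 and a median Mtr4 rise of 2.51, and the longest, at 914 bases or more, had 2.81 and 2.72. The dbp2 medians of these length classes were 1.31 and 1.28, and so nearly equal. The share called higher in dbp2 was 81.4% in the shortest class, where the median SE of 0.23 was the largest, and 90.6% in the longest, where it was 0.14; longer XUTs carry more reads, and this was not separated from length.

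**Figure D4:**
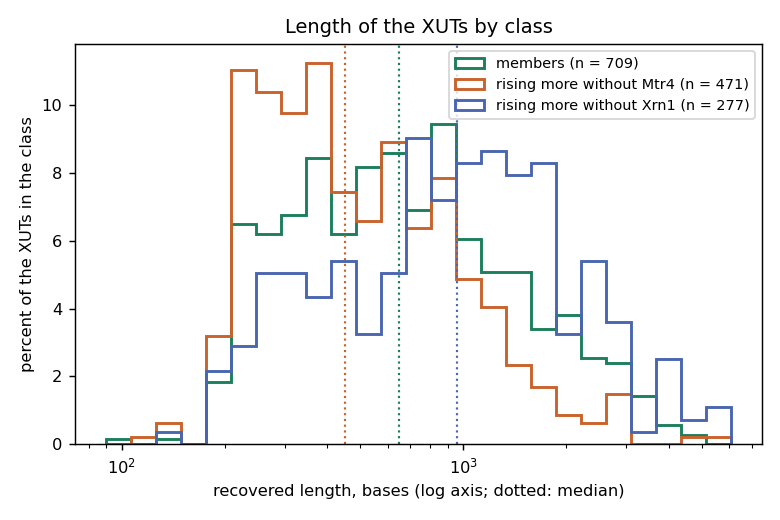
Distribution of recovered length in bases (horizontal log axis) as a percent of the XUTs in each class (vertical axis). Dotted lines mark the medians, at 648 for the 709 balanced XUTs (green), 450 for the 471 that rose more without Mtr4 (orange) and 958 for the 277 that rose more without Xrn1 (blue).

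Apart from XUT1813, the balanced XUTs lay on all 16 chromosomes and were divided almost evenly between the strand blocks, 351 in the plus block and 358 in the minus block. Their share of the XUTs at or above the density limit ran from 31.8% on chromosome XI (28 of 88) to 60% on chromosome VI (18 of 30). Rows with near-equal reads in all libraries, which may count 1 RNA under 2 names, were NUTs for 62 balanced XUTs and CUTs for 6. Among the XUTs that rose more without Mtr4 these counts were 35 and 40 of 471, and among those that rose more without Xrn1 they were 19 and 0 of 277. These counts are a description with no test.

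By row order, 256 of the 708 balanced XUTs that could be placed (36.2%) must overlap a gene on the opposite strand, against 33% and 33.2% of the classes that rose more without Mtr4 and without Xrn1. The 256 had a median length of 1010 bases, against 498 for the rest, which may or may not overlap such a gene. This gap follows largely from the placing, because a longer XUT reaches a gene from more of its allowed starts. Their medians were 2.73 against 2.54 for the xrn1 rise, 2.77 against 2.52 for the Mtr4 rise, and 1.23 against 1.39 for dbp2. Both rises were also larger in the longest balanced XUTs than in the shortest, and overlap was not separated from length. Of the genes opposite the 42 balanced XUTs with a fixed partner, 37 were tested, and 32 of these were called higher in dbp2 and 2 lower (86.5% higher and 5.41% lower, against 83.9% and 7.85% of protein-coding genes). Relative to the median protein-coding gene, 16 of the 37 were higher and 15 lower (43.2% and 40.5%, against 37.9% and 42.1%). In 29 pairs XUT and gene were both called higher in dbp2 per spike-in RNA. On the relative scale this held for 7 pairs, while in 13 the gene was lower and the XUT higher, in 3 the gene was higher and the XUT lower, and in 1 both were lower. Of all 709 balanced XUTs, 87.6% were called higher per spike-in RNA, and on the relative scale 58.7% were higher and 8.89% lower. With such shares many pairs would be called alike or opposite with no link between XUT and gene, and a link was not tested. The pairs were described after their values were seen. They differ in overlap: the stretch covered in every position held from 6 bases of the gene (XUT1537 with CPR3) to 2292 (XUT1036 with RGT2).

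The 2 pairs that moved in opposite directions per spike-in RNA were the GLC3 and PHO5 loci, and both also did so relative to the median protein-coding gene. GLC3 (chrV:133120-135234) encodes the glycogen branching enzyme, and its RNA was higher in dbp2 with a log2 change of 1.53 ± 0.10 SE (limma adjusted p = 1.7e-07; 0.71 relative to the median protein-coding gene), where XUT1126 was lower. In xrn1 and tet-MTR4-Dox, both GLC3, at 3.80 and 2.10, and XUT1126 were higher. PHO5 (chrII:429548-430951) encodes a secreted acid phosphatase repressed by phosphate, and its RNA was lower in dbp2 at -1.64 ± 0.12 SE (adjusted p = 3.7e-07) and in tet-MTR4-Dox at -3.96, while XUT0057 was higher in dbp2 at 1.28 ± 0.11 SE (adjusted p = 1.3e-06), with rises of 3.25 without Xrn1 and 3.74 without Mtr4. In xrn1 PHO5 was higher at 1.75, which became -0.32 relative to the median protein-coding gene. PHO5 has a near-identical neighbour, PHO3, so reads may have been split between them; PHO3 changed by 0.56 in dbp2 and 0.19 in tet-MTR4-Dox.

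Per spike-in RNA, which is the scale of the following values unless another is named, the other pairs mostly rose together by different amounts. Opposite XUT0170, NRG1, a repressor of glucose-repressed genes, rose by 3.74 in dbp2, against 1.66 for the XUT. Opposite XUT0455, the sporulation gene SPS100 rose by 4.18, against 0.77 for the XUT. FAR1, which arrests the cell cycle in response to pheromone, changed by 0.29 opposite XUT0521, which rose by 2.04, the largest dbp2 change among the 36 XUTs of these pairs; relative to the median protein-coding gene FAR1 was at -0.55. QDR2, a multidrug transporter gene opposite XUT1340, fell in dbp2 at -0.37, and its XUT did not pass the test (0.23, limma adjusted p = 0.16); relative to the median protein-coding gene QDR2 was at -1.21 and XUT1340 was lower at -0.43 (adjusted p = 0.027). Opposite XUT1365, BCK1, the gene for a protein kinase of the cell wall integrity pathway, rose by 0.48 and the XUT by 1.31; on the relative scale BCK1 was lower at -0.36 and the XUT higher at 0.79.

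**Figure D5:**
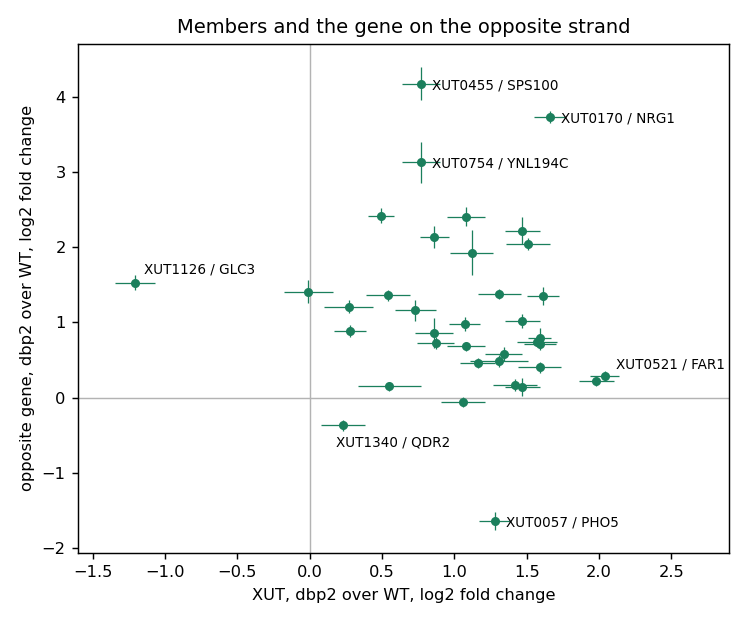
Each point is a pair of a balanced XUT and the gene that it overlaps on the opposite strand in every position the rows allow (37 pairs); the axes give the limma log2 fold change of dbp2 over WT per spike-in RNA, for the XUT horizontally and the gene vertically, with bars of 1 SE. Most pairs lie in the upper right on this scale; XUT1126 with GLC3 is on the upper left and XUT0057 with PHO5 on the lower right.

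Genes of the decay machinery itself were examined as lists. In dbp2, all 13 nuclear exosome genes were called higher (median log2 1.04), as were 3 of 3 nonsense-mediated decay genes (1.07), 4 of 5 TRAMP genes (0.83), 5 of 8 genes of 5′ to 3′ decay and decapping (0.58, with 2 lower) and 1 of 3 Nrd1 complex genes (0.01), against 84.8% of all features called higher and 5.31% lower, with a median of 0.95. Relative to the median protein-coding gene, these counts were 9 higher and 3 lower of 13, 2 and 1 of 3, 1 and 2 of 5, 3 and 5 of 8, and 0 and 2 of 3, against 43.3% higher and 28.7% lower over all features. XRN1 RNA was among those lower in dbp2, with densities of 1.59 and 1.57 in dbp2, against 2.49 and 2.28 in WT (log2 -0.59 ± 0.06 SE, limma adjusted p = 8.9e-06). MTR4 RNA did not pass the test there, with densities of 1.5 and 1.52 in dbp2 and 1.61 and 1.51 in WT. In xrn1, 13 of 13 exosome genes, 3 of 3 nonsense-mediated decay genes, 5 of 5 TRAMP genes, 7 of 8 decapping genes (all but XRN1) and 3 of 3 Nrd1 complex genes were higher per spike-in RNA. In tet-MTR4-Dox the counts were 13, 3, 4 (all but MTR4), 8 and 3; over all features 95% were called higher in xrn1 and 91.3% in tet-MTR4-Dox. Relative to the median protein-coding gene the direction turned for many in xrn1, where 0 exosome genes were higher and 11 lower, with 0 and 1 for nonsense-mediated decay, 2 and 3 for TRAMP, 1 and 4 for decapping and 1 and 2 for the Nrd1 complex (35.5% higher and 38.6% lower over all features). In tet-MTR4-Dox on that scale, 8 exosome genes were higher and 0 lower, with 2 and 1 for nonsense-mediated decay, 2 and 2 for TRAMP, 1 and 5 for decapping and 2 and 1 for the Nrd1 complex (62.1% higher and 24.7% lower over all features).

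Which XUTs count as balanced depends on the scale. On the spike-in scale the median protein-coding density was 1.69 and 1.67 in xrn1 cells, 0.646 and 0.655 in tet-MTR4-Dox, 0.373 and 0.346 in WT-Dox, and 0.411 and 0.388 in WT, so the median messenger stood further above its control in xrn1 than in tet-MTR4-Dox. Set on that median gene, the xrn1 rise of the 709 had a median of 0.81 and the Mtr4 rise one of 1.95. The difference then had a median of 1.15, and 415 of the 709 lay above 1 and 0 below -1. On that scale 518 XUTs lay between -1 and 1, of which 294 are among the 709, 41.5% of the 709 and 56.8% of the 518. The similar rises are therefore a statement per spike-in RNA; relative to the median messenger, 415 of the 709 had a Mtr4 rise more than 1 above their xrn1 rise.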

How the data were processed

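The deposited table holds normalized densities, a signal that the authors made from reads; the tools listed in the submitters' processing notes are featureCounts 2.0.0, HISAT2 2.2.0, DESeq2 and Trim Galore, with genome build R64 and no roles, and the labels name a TruSeq Stranded kit. Each value is a whole number of reads over feature length and a library factor (tolerance 0.001 reads), from which reads and lengths were recovered; recovered lengths of genes include untranslated ends. That the factors follow the 92 ERCC RNAs is inferred.

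The log2 of density + 0.006 was fitted with limma 3.58.1 in R 4.3.3 (lmFit, eBayes with trend) over all 10 libraries for 9680 features with a mean density of at least 0.034, with 5 residual degrees of freedom, so an SE pools the spread of all groups. Fold changes on this scale understate those of low features. Calls use a Benjamini-Hochberg adjusted p under 0.05. Relative values come from the same features after each library was divided by its median protein-coding density. The fit was tested on simulated data in which most features were unchanged in dbp2, so that test does not cover a rise of most features as seen here.

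Members and gene lists were chosen with earlier results of these data known. Named are the 6 members with the largest and the 4 with the smallest joint rise, 4 with a difference nearest 0, the 4 densest, up to 6 called each way in dbp2, and XUTs at the limits; pairs with opposite genes and XUT0060 were named after their values were seen. Alternatives covered the scale, the added value, the filter, voom on recovered reads, single libraries, a replicate block and the limits of the choice. Tables were handled with Python 3.11.15, pandas 2.3.3, numpy 2.4.6 and matplotlib 3.10.9.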

Additional observations from a re-analysis of the deposited data

How the results depend on the processing

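Per spike-in RNA, 621 balanced XUTs were higher and 11 lower in dbp2 (87.6% and 1.55%, against 84.8% and 5.31% of all features). Their median log2 change was 1.32. On the relative scale 63 were lower (8.89%, against 28.7% of all features) and the median was 0.65. For the other settings the share of all features was not counted. Those counts therefore show only how far the calls of members moved, and are no result about the members against other features. The median was 0.87 with 4 times the added value, 1.51 with the added value divided by 4, and 1.53 with voom on recovered reads, which called 616 higher and 8 lower. A density limit 4 times higher left 142 members, of which 132 were higher and 0 lower by limma, also 0 at an unadjusted p under 0.05 and 0 by voom, with a median of 1.49. The 11 members called lower had mean densities of at most 0.113, under that limit. None of them entered there, so the 0 does not test their falls. Limits of -0.5 and 0.5 left 374 members. Leaving out single libraries gave 596 to 630 higher, 8 to 13 lower, medians of 1.30 to 1.33 and 678 to 726 members. Above 0 per spike-in RNA but called lower on the relative scale were the named members XUT0176 at -0.69, XUT1564 at -0.74 and XUT0466 at -0.31; XUT0978 at -0.27, XUT1124 at -0.31, XUT1696 at -0.37 and XUT0646 at -0.03 also changed sign but passed the test on neither scale. The relative scale divides by the median protein-coding density, which was 0.734 and 0.706 in dbp2, against 0.411 and 0.388 in WT. That division shifts dbp2 effects downward, so small rises can turn negative. Why this median was higher in dbp2 was not tested. XUT1576 also lost its call by voom (-0.47, limma adjusted p = 0.15), and XUT0725 passed the test without WT replicate 2 (-0.72, adjusted p = 0.016). With the replicate block 619 were higher and 11 lower, with a median of 1.32, and the block changed no call of a named member. Deviations of same-numbered libraries from their group means correlated between -0.0786 and 0.0451 across groups. No pairing by number was seen there, although a shift shared by whole libraries would not show in such a correlation. Depth limits the low members: 35.5% and 26.2% of the 709 had under 10 reads in the WT libraries.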
